A study of Rattus norvegicus with 16 samples.

Results

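Glomeruli of 8 rats that had received puromycin aminonucleoside (PAN) and then an agonist of the nuclear receptor PPARγ were compared with glomeruli of 4 rats that had received PAN and a sham vehicle. The comparison asked for a drug effect shared by pioglitazone and GQ-16, so both treated groups of 4 rats were pooled, and 12 of the 16 libraries of the series were used. All 13222 genes of the deposited table entered the comparison, after each library had been centred on its own median. The members were set by the group labels and by no measured value, but they were chosen with earlier results of these data known.

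All rats were male Wistar rats of about 175 g. PAN was given by intravenous injection and pioglitazone, GQ-16 or the vehicle by daily gavage, and on day 11 glomeruli were sieved from the kidneys and poly(A) RNA was sequenced. The groups used here were PAN (injury and vehicle), PAN_Pio (injury and pioglitazone) and PAN_GQ-16 (injury and GQ-16), with 4 rats each. The other 4 rats were healthy controls (Ctl), used below only as a level of reference. No dose is given in the sources used here, and nothing there says whether each library came from a separate experiment, so p-values measure the spread between these libraries. A sieved preparation holds every cell type of the glomerulus and pieces of tubule, and fewer cells of a type cannot be told apart from less RNA per cell.

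PAN damages podocytes, whose foot processes form the filtration slits, and is widely used in rats to model nephrotic syndrome. PPARγ is a ligand-activated transcription factor that pairs with a retinoid X receptor on direct repeats in DNA and controls lipid uptake, lipid storage and insulin sensitivity. Pioglitazone is a thiazolidinedione in clinical use against type 2 diabetes, and GQ-16 is a partial agonist of the same receptor. Desmin is a well-known marker of injured podocytes, and smooth muscle actin marks activated mesangial cells.

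Totals of the 12 libraries lay between 13351137 and 21977663 reads and did not separate the groups, with 17130995 ± 2881000 reads (SD, n = 8) in treated and 17152301 ± 1538000 (SD, n = 4) in PAN rats (exact permutation test, two-sided, p = 0.99). The share of reads from the 13 mitochondrially encoded genes was 15.1% ± 7.86 in treated and 9.07% ± 2.19 in PAN rats, a difference of 6.005 percentage points (exact permutation test, p = 0.174), where the smallest possible p is 0.00202. Defining markers of podocytes (5 of 5), mesangial cells (3 of 3), glomerular endothelium (4 of 5), tubules and leukocytes were found in the table. Sample numbers in the titles were unevenly spread: 3 of 4 PAN rats but 2 of 8 treated rats had a number of 25 or higher. The labels do not say what these numbers stand for, so the median within each range is given for every gene list. The difference within each range is given for some genes only, and others also moved widely. Kap differed by -0.34 in the higher and -2.11 in the lower range, Mt1 by -0.02 and -2.05, and Col1a1 by 0.09 and 1.80. The lower range holds a single PAN rat. PAN rat 1 stood apart from the other PAN rats in collagen and inflammatory genes, as its values below show.

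No gene passed the threshold of an adjusted p under 0.05 when treated rats were set against PAN rats. With limma the smallest adjusted p was 0.548, and percent called was 0. At an unadjusted p under 0.05 there were 652 genes, 4.93% of those tested, of which 381 (2.88%) were lower and 271 (2.05%) were higher in treated rats. A p under 0.05 is what about 5 in 100 genes give with no difference at all, so this count is near the background. Whatever their p, 5963 of all genes had a lower and 7259 a higher value in treated rats. Without PAN rat 1 the genes past an unadjusted p of 0.05 were 201 lower and 222 higher, and without the third pioglitazone rat they were 377 lower and 383 higher, so the balance between the directions turned. Without median centring the same count was 911 lower and 49 higher, and the median over all genes moved from 0.02 to -0.11 on the log2 scale. The median standard error of a gene's difference was 0.13 on the log2 scale, against a median absolute difference of 0.09. The typical difference was therefore within the spread between rats, and a drug effect of that size could not be told from it.

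All 8 treated rats lay below all 4 PAN rats for 26 genes (0.197%) and above them for 42 genes (0.318%). With no difference at all, 1 of the 495 assignments of rats gives such a separation in each direction, a proportion of 0.00202. The lower count is near that proportion and the higher count is above it, and neither was tested. Differences over 2-fold were seen for 83 genes, 65 of them lower and 18 higher in treated rats. These larger differences were mostly on the lower side, and the contractile and cytoskeletal genes Des, Ldb3 and Tagln were among them. In what follows, levels are CPM, a read count scaled to the library total, brought to a common library median and called scaled CPM. They are given in the order of rats 1 to 4 of a group, and differences are log2 values of treated minus PAN rats with the standard error (SE).

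**Figure D1:**
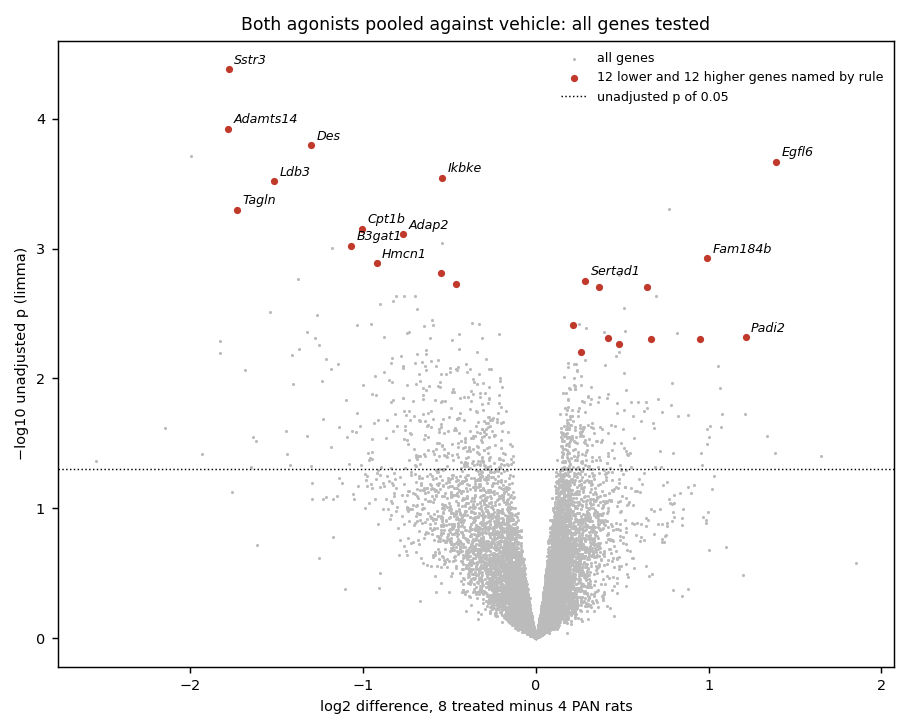
The log2 difference of 8 treated minus 4 PAN rats (horizontal axis) is plotted against −log10 of the unadjusted limma p (vertical axis) for 13222 genes, one grey point each. Red points are the 12 lower and 12 higher genes named by rule, and the dotted line is an unadjusted p of 0.05. No point passed the threshold after adjustment, and the points far to the left outnumber those far to the right.

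Des encodes desmin, the intermediate filament of muscle and of mesangial cells, and a marker of podocyte injury. The Des level was 825, 687, 508 and 599 scaled CPM in the 4 PAN rats. It was 204, 288, 245 and 473 with pioglitazone and 191, 178, 257 and 371 with GQ-16. The groups did not overlap, and every treated value stood above the healthy mean of 91.4 ± 43.2 (SD, n = 4). The difference was -1.30 on the log2 scale (SE 0.25, 95% interval -1.83 to -0.77), and the limma adjusted p was 0.563. The highest treated value in each drug group belonged to the rat with a title number over 25. Within the rats numbered 25 and higher the difference was -0.66, and within the lower numbers, where there was a single PAN rat, it was -1.42.

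Ldb3 encodes a PDZ and LIM domain protein of the muscle Z-disc. In PAN rats the Ldb3 level was 41.4, 24.6, 16.5 and 30.2 scaled CPM. Pioglitazone rats had 10.8, 11.5, 9.48 and 15.1, and GQ-16 rats had 4.60, 6.12, 9.64 and 12.1. All treated values were below all PAN values and above the healthy mean of 2.01 ± 0.41 (SD, n = 4). The difference was -1.51 (SE 0.31, limma adjusted p = 0.57), and with the title number range as a covariate it was -1.32. Within the higher title numbers the difference of Ldb3 was -0.92 and within the lower ones -1.87.

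Tagln encodes transgelin, an actin-binding protein of smooth muscle. Its level in PAN rats was 329, 87.5, 61.1 and 80.1 scaled CPM, so the first rat was far above the others. It was 33.1, 37.2, 40.6 and 43.8 with pioglitazone and 20.1, 23.4, 34.1 and 38.8 with GQ-16. The groups did not overlap, and the difference was -1.73 (SE 0.37, limma adjusted p = 0.735). Without PAN rat 1 it was -1.20. Tagln differed similarly within the 2 ranges of title number, by -1.55 in the higher and -1.39 in the lower.

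The promoters of Des and Ldb3 are shown because serum response factor, a regulator of muscle and actin genes, binds the CArG box, and both genes belong to the contractile group. Sequences are from RefSeq on assembly GRCr8, 300 bases around the transcription start, and capitals mark a match to the CArG box on either strand. The libraries themselves were aligned to another assembly, so the sequences are shown for reference only. Des lies at chr9:84299376-84299675 on the plus strand and Ldb3 at chr16:9924630-9924929 on the minus strand.
Des: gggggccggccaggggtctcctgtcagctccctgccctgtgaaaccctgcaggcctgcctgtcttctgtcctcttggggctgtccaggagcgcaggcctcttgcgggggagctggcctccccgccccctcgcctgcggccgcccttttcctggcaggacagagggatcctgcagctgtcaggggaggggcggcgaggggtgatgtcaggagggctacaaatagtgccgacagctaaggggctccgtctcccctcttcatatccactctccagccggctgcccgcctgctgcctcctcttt
Ldb3: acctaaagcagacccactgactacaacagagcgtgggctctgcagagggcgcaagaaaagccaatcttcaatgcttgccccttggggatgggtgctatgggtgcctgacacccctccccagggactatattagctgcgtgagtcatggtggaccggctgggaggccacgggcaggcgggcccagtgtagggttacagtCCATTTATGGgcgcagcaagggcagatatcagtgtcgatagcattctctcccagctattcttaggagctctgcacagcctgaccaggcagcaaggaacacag
A CArG box was found in 1 of the 9 lower genes with a RefSeq promoter, Ldb3, where CCATTTATGG began 52 bases before the start, and in 0 of 11 higher genes. It was in 2 of 11 striated muscle genes (Ldb3 and Myl3) and in 1 of 14 mesangial and smooth muscle genes (Fhl2). Over all 33469 promoters of the same length it was found in 548 (1.64%). A direct repeat of AGGNCA with 1 base between the copies, the form that a PPAR and its partner bind, was in 0 of the 9 lower genes, 0 of the 11 higher genes and 0 of 21 PPAR target genes, and in 139 (0.415%) of all promoters. These letters are not in these windows, which says nothing about the factors.

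Sstr3 encodes a somatostatin receptor and had the smallest p of the comparison. Its level was 18.1, 18.0, 21.9 and 21.4 scaled CPM in PAN rats. It was 3.74, 6.37, 3.58 and 11.6 with pioglitazone and 4.07, 5.33, 6.18 and 9.29 with GQ-16. No treated rat reached the lowest PAN rat, and the difference was -1.78 (SE 0.29, limma adjusted p = 0.548). Healthy rats had 2.97 ± 0.63 (SD, n = 4). Within the higher title numbers the difference of Sstr3 was -0.89 and within the lower ones -2.17.

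Adamts14, a metalloprotease that trims the ends of procollagens, had 51.7, 27.4, 27.4 and 23.9 scaled CPM in PAN rats. It had 8.23, 12.2, 8.28 and 14.6 with pioglitazone and 3.71, 7.62, 13.3 and 9.68 with GQ-16. The difference of -1.78 (SE 0.33, limma adjusted p = 0.563) was almost the same within both ranges of title number, at -1.51 and -1.53. With the tubule lists as a covariate this was the single gene that passed, with a limma adjusted p of 0.0271.

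Cpt1b, the muscle form of the enzyme that lets fatty acids into mitochondria, had the smallest p among the PPAR targets. PAN rats had 28.5, 22.8, 21.1 and 18.6 scaled CPM, pioglitazone rats 8.87, 11.5, 8.53 and 17.5, and GQ-16 rats 7.49, 10.2, 12.7 and 16.8. The difference was -1.004 (SE 0.23, limma adjusted p = 0.913), and all treated values were below the PAN values. The highest treated value was 17.5 against a lowest PAN value of 18.6, so the margin was small. The difference of Cpt1b was -0.48 within the higher and -0.93 within the lower title numbers, and -0.67 with the title number as a covariate.

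Of the remaining 6 genes named as lower, 4 did not overlap between the groups, where 0.197% of all genes lay below in this way. The named genes were chosen by their small p in this comparison, so such separation is partly built in. Ikbke, an IκB kinase of the interferon and NF-κB pathways, was 23.3 ± 3.18 scaled CPM in PAN (SD, n = 4) and 16.02 ± 2.03 in treated rats (SD, n = 8), a difference of -0.54. Hmcn1, a large matrix protein, was 49.96 ± 9.67 in PAN and 26.9 ± 7.10 in treated rats, a difference of -0.92 that was almost equal within the 2 title number ranges (-0.90 and -0.95). Adap2, an ARF GTPase-activating protein, differed by -0.77 and the amino acid transporter gene Slc38a6 by -0.46. Within the higher title numbers Adap2 differed by -0.46 and Slc38a6 by -0.24. B3gat1, which makes the HNK-1 carbohydrate, differed by -1.07 with overlapping groups. Plvap, a protein of endothelial fenestral diaphragms, differed by -0.55, with 226, 216, 150.1 and 179 scaled CPM in PAN rats and between 108 and 166 in treated rats. Its limma adjusted p was 0.913, as for the other genes of this paragraph except Ikbke, where it was 0.57. Gnat2, chosen after its values were seen and below the level asked of named genes, had 15.5, 7.06, 6.40 and 10.00 scaled CPM in PAN and 0.97 to 5.44 in treated rats (limma adjusted p = 0.563).

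**Figure D2:**
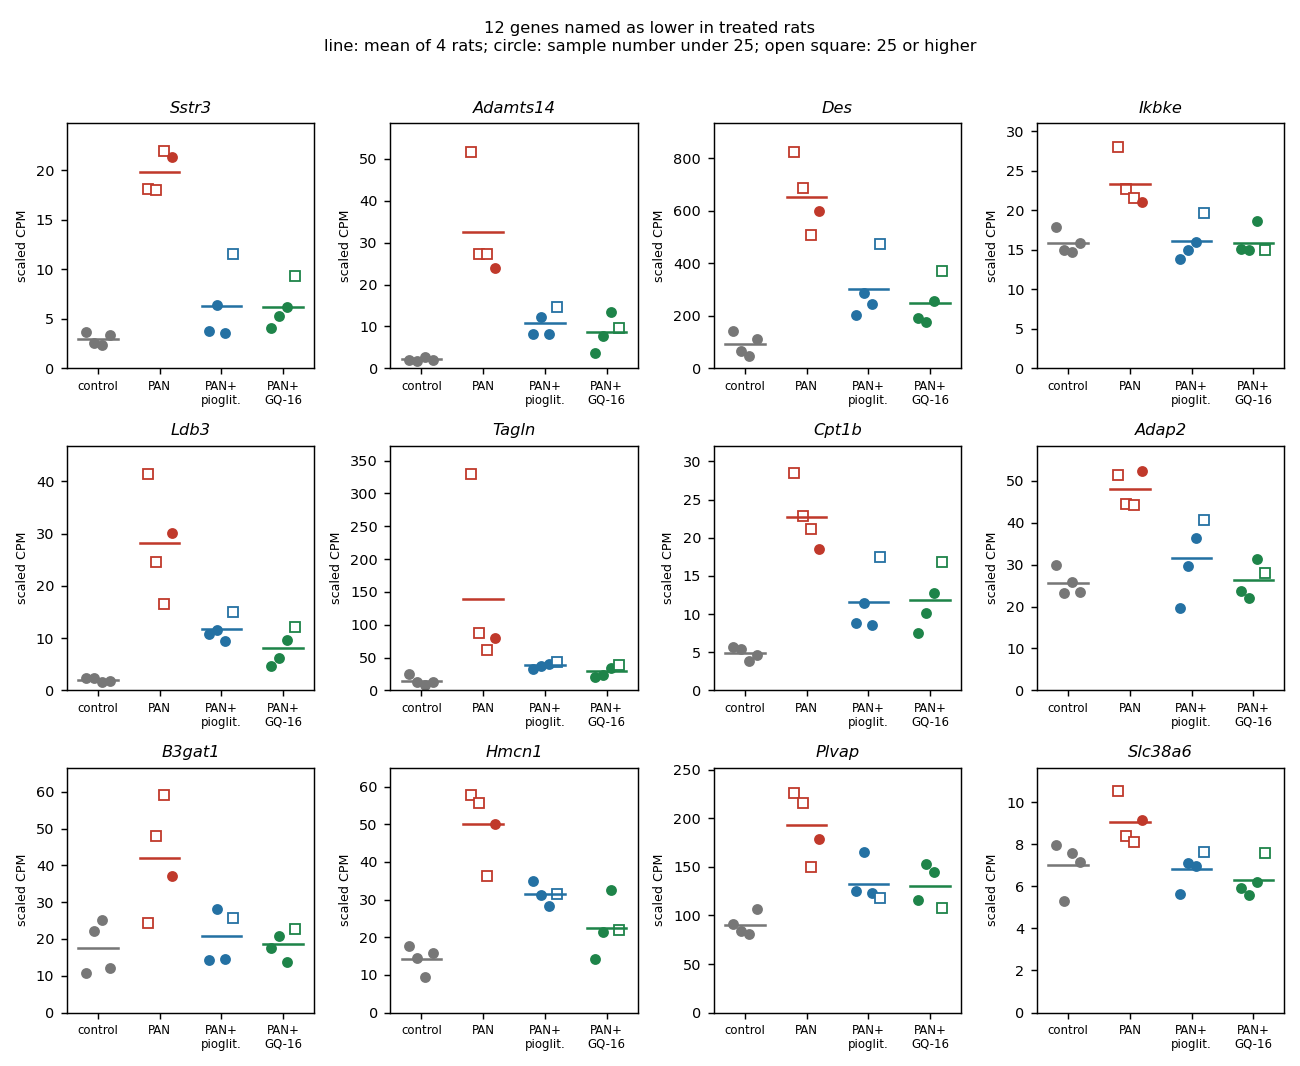
Scaled CPM (vertical axes, each from 0) of the 12 genes named as lower in treated rats, for the 4 healthy, 4 PAN, 4 pioglitazone and 4 GQ-16 rats. Points are rats, lines are means of 4, and open squares mark title numbers of 25 or higher. All treated rats lie between PAN and healthy rats for Des, Ldb3 and Cpt1b, the lowest treated rat overlaps healthy rats for Sstr3, and for Tagln PAN rat 1 lies far above the rest.

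Among the 12 genes named as higher, Egfl6 had the smallest p. It encodes a secreted EGF-like protein of basement membranes. Its level was 2.48, 4.61, 4.21 and 3.45 scaled CPM in PAN rats, 4.57, 14.2, 9.53 and 8.39 with pioglitazone and 9.17, 9.91, 14.4 and 9.01 with GQ-16. One pioglitazone rat fell within the PAN range, and the other 7 treated rats were above it. The difference was 1.39 (SE 0.27, limma adjusted p = 0.563) and changed little between the ranges of title number, 1.26 and 1.48.

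For 3 of the 12 higher genes there was no overlap between the groups, where 0.318% of all genes lay above in this way. The 12 were chosen by their small p in this comparison, so such separation is partly built in. Sertad1, a regulator of cyclin-dependent kinase activity, was 38.4, 36.2, 44.5 and 40.3 scaled CPM in PAN rats and between 45.02 and 54.1 in treated rats, a difference of 0.29 (SE 0.07). Fam135a was 31.02, 31.9, 37.1 and 35.2 in PAN rats and between 37.2 and 47.5 in treated rats, and the healthy mean was 49.96 ± 4.74. Rgs7, a regulator of G protein signalling, was 7.73, 6.64, 7.55 and 7.61 in PAN rats and between 8.43 and 13.3 in treated rats, and its difference was 0.72 within the higher and 0.27 within the lower title numbers. All had a limma adjusted p of 0.913, and their differences of 0.26 to 0.42 were far smaller than those of Des or Ldb3.

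The other 8 higher genes overlapped between the groups, each with a limma adjusted p of 0.913. Padi2, which converts arginine to citrulline in proteins, differed by 1.21 and Efemp1, a fibulin of the extracellular matrix, by 0.95. For Efemp1 the PAN rats had 8.38, 9.51, 7.71 and 7.61 scaled CPM and the treated rats from 7.16 to 24.8, and it passed with the podocyte list as a covariate (limma adjusted p = 0.0432). Cd200, an immune inhibitory surface protein, was 221, 285, 304 and 268 in PAN rats against 296 to 537 in treated rats, a difference of 0.48. The remaining genes were Fam184b (0.99), Ptchd1 (0.64), Pggt1b (0.37), Blmh (0.21) and Rps4y2 (0.67), whose reads are uncertain because near-identical ribosomal protein genes exist.

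**Figure D3:**
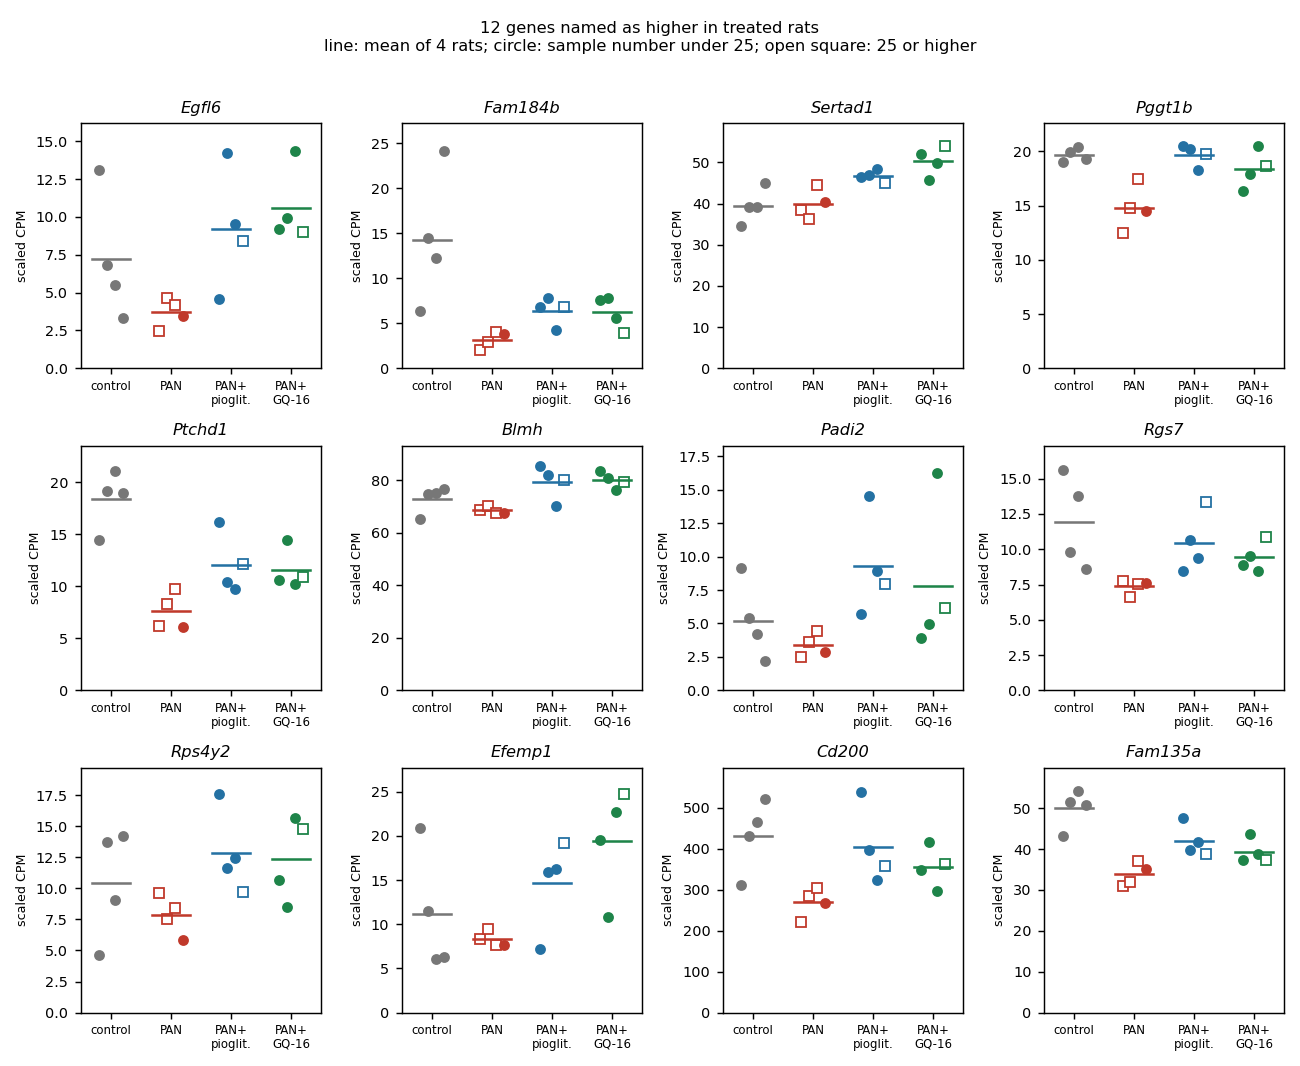
Scaled CPM (vertical axes, each from 0) of the 12 genes named as higher in treated rats, for 4 rats in each of the healthy, PAN, pioglitazone and GQ-16 groups. Points are rats, lines are means of 4, and open squares mark title numbers of 25 or higher. Sertad1, Rgs7 and Fam135a show no overlap between treated and PAN rats, and Egfl6 has 1 pioglitazone rat within the PAN range.

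The receptors and their partners came first among the gene lists, since the drugs act through them. None of the 17 genes in the table passed at an unadjusted p under 0.05 in either direction, and their median difference was 0.02, as over all genes (-0.03 within the higher and -0.02 within the lower title numbers). Ppara, the receptor of fatty acid oxidation, had a mean of 10.23 scaled CPM in PAN rats, 10.25 in pioglitazone rats and 9.825 in GQ-16 rats. Ppard was 51.96 in PAN and 49.3 and 49.2 with the drugs. Rxra, a dimer partner, was 64.05 in PAN rats, 71.99 in pioglitazone rats and 61.9 in GQ-16 rats. The smallest unadjusted p in the list was 0.13, for Cebpb (-0.17) and Rxrb (0.12), so no gene of the receptor complex stood apart. Pparg itself was not analysed here.

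Of 46 PPAR target genes 35 were in the table, and 2 of them (5.71%, against 2.88% of all genes) were lower and 0 higher at an unadjusted p under 0.05. The 2 were Cpt1b and Abca1, the cholesterol exporter of macrophages and other cells, which differed by -0.82 (SE 0.29). Abca1 was 115, 34.1, 42.1 and 65.5 scaled CPM in PAN rats and from 20.6 to 53.3 in treated rats, and without PAN rat 1 its difference was -0.49. Pdk4, a pyruvate dehydrogenase kinase and a classic target of all PPARs, was 31.2 in PAN rat 1 but 5.62, 5.77 and 7.31 in the other PAN rats, and from 3.75 to 7.45 in treated rats. Its difference was -0.82 with all rats and -0.24 without PAN rat 1. Unlike Cpt1b, Plin2, which coats lipid droplets, differed by -0.16 (SE 0.16) and Cpt1a, which lets fatty acids into mitochondria, by 0.02 (SE 0.10). Plin2 differed by -0.51 within the higher and 0.22 within the lower title numbers. For the list as a whole, 25 genes had a lower and 10 a higher value in treated rats (5963 and 7259 over all genes), and the median was -0.09. Without PAN rat 4 the median was 0.02. The count of lower genes was 1 without PAN rat 1 (1.52% of all genes). It was 4 without PAN rat 2 (2.23%) and 4 without PAN rat 4 (4.27%). Within the lower title numbers, with their single PAN rat, the median was -0.37. Within the higher ones 2 were lower (3.49% of all genes) with a median of -0.11. With the title number as a covariate 5 were lower (4.38%) with a median of -0.20. Without centring 7 were lower (6.89%) with a median of -0.21. No target of the list passed as higher, and several known targets in fat tissue were not analysed here.

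Fatty acid and cholesterol synthesis genes showed 0 lower and 2 higher of 27 at an unadjusted p under 0.05 and a median of 0.07. Among them was Fdft1, squalene synthase, at 0.27 (SE 0.12), which was 0.11 without PAN rat 1. The share of 7.41% stood against 2.05% of all genes, and without centring 0 genes of the list were higher and 1 was lower. With each rat left out the count of higher genes was 0 to 3, against 1.62% to 2.9% of all genes. It was 0 without PAN rat 4, the second GQ-16 rat or the second pioglitazone rat, and 1 without PAN rat 1. The list's median was 0.005 without PAN rat 1 and 0.14 without PAN rat 2. The median was -0.05 within the higher and 0.16 within the lower title numbers.

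Injury response genes had 9 of 31 lower (29%, against 2.88% of all genes) and 1 higher at an unadjusted p under 0.05, with a median of -0.31. Ccn1, a matricellular protein induced by growth factors, differed by -0.73, which was -0.43 without PAN rat 1. Phlda3, a p53 target that restrains Akt, differed by -0.74. The 1 higher gene was Plk2, a stress-induced kinase, at 0.52 (SE 0.22). Lcn2, a marker of tubule injury, was 0.47 (SE 0.51), or 0.16 without PAN rat 4 and 1.12 without PAN rat 1, and Vim, vimentin, -0.13 (SE 0.24). Phlda3 was among genes picked after their values were seen.

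The count of lower injury genes was 6 without PAN rat 1 (1.52% of all genes), where the median was -0.08. It was 11 without PAN rat 4 (4.27%) and 8 with the title number range as a covariate (4.38%). Within the lower title numbers, with their single PAN rat, the median was also -0.08. Within the higher ones it was -0.33, with 6 lower genes (3.49% of all genes). Lgals3, galectin 3 of macrophages and stressed epithelium, was 51.0 scaled CPM in PAN rat 1 and 9.99, 9.12 and 9.20 in the others, and its difference of -0.95 was -0.34 without that rat. Beside Phlda3 at -0.74, other p53 targets differed by varied amounts. Ccng1 differed by -0.56 (-0.12 within the higher and -1.13 within the lower title numbers), Aen by -0.31 and Mdm2, the p53 inhibitor, by -0.06 (SE 0.07). These genes were picked after their values were seen, and p53 targets were not tested as a group.

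Cdkn1a, the cell cycle inhibitor p21, had the smallest p for a difference between the drugs among the genes named whatever their values. That set was chosen with earlier results of these data known, so the rank is no separate support. Cdkn1a was 42.0, 63.1, 35.6 and 37.3 scaled CPM in PAN rats, 46.6, 37.2, 34.8 and 33.4 with pioglitazone and 15.2, 20.03, 20.4 and 15.9 with GQ-16. All GQ-16 rats lay below all pioglitazone and PAN rats, while pioglitazone rats overlapped PAN rats. The pooled difference of -0.75 (SE 0.31, limma adjusted p = 0.913) therefore averaged -0.20 with pioglitazone and -1.29 with GQ-16. Prune2 showed the same order, with 4.15, 4.82, 4.15 and 4.86 in PAN, 4.67, 3.47, 2.73 and 3.10 with pioglitazone and 1.29, 1.36, 1.63 and 2.43 with GQ-16.

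The 2 compounds were compared directly as 1 pair, at doses that the sources used here do not give. With limma 0 genes were called (percent called 0), and 0.798 was the lowest adjusted p. At an unadjusted p under 0.05 there were 812 genes (6.14%), 565 of them lower and 247 higher with GQ-16. This count was 320 without the first pioglitazone rat, 353 without the first GQ-16 rat, 540 without the second pioglitazone rat and 1264 without the third pioglitazone rat, the last being the highest with 1 rat left out. For Cdkn1a the difference of GQ-16 minus pioglitazone was -1.09 with a 95% interval of -1.49 to -0.69, and for Prune2 it was -1.07 with an interval of -1.58 to -0.57. Both had a limma adjusted p of 0.798, and both were chosen with earlier results of these data known. The genes named as lower differed less between the drugs: for Des the interval was -0.89 to 0.35, for Cpt1b -0.57 to 0.62 and for Sstr3 -0.68 to 0.85. These intervals include 0 and also include differences of 1.5-fold or more, so they do not show that the compounds act alike. Tgfb3, a TGF-β ligand, differed by -0.79 (-1.33 to -0.26) between the drugs and Hmcn1 by -0.54 (-1.02 to -0.07), each with a limma adjusted p of 0.798.

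Extracellular matrix genes had 10 of 38 lower (26.3%, against 2.88% of all genes) and 0 higher at an unadjusted p under 0.05, with a median of -0.35. The median was -0.22 with pioglitazone and -0.45 with GQ-16. Without PAN rat 1 the count was 0 (1.52% of all genes) and the median -0.11, and without PAN rat 2 the count was 2 (2.23%). Without PAN rat 2 the median was -0.31, so the size of the difference moved little there while the count fell. The count was 14 without PAN rat 3 or PAN rat 4 (3.45% and 4.27% of all genes). With the title number range as a covariate the count was 1 (4.38%) and the median -0.22. With the mitochondrial share as a covariate the count was 1 (2.31%) and the median -0.33. Within the lower title numbers, with their single PAN rat, the median was 0.01. Within the higher ones 3 matrix genes were lower (3.49% of all genes) and the median was -0.40. Of the rats left out in turn, PAN rat 1 moved the matrix median by over 1.5 times and the others did not.

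Single collagens show this. Col3a1, a fibrillar collagen of interstitial tissue, was 672 scaled CPM in PAN rat 1 and 12.6, 6.29 and 3.21 in the other PAN rats, with treated rats from 1.395 to 14.7. Col6a1, a microfibrillar collagen, was 199 in PAN rat 1, 8.34, 4.36 and 4.13 in the others and from 2.17 to 6.95 in treated rats. Their differences of -2.55 and -1.93 were -0.86 and -0.62 without that rat. Col1a1, the main fibrillar collagen chain, was 1544, 243, 185 and 81.0 in PAN rats, 169.8, 152, 266 and 253 with pioglitazone and 455, 199.8, 816 and 754 with GQ-16. Its difference was 0.20 (SE 0.69) with all rats and 1.03 without PAN rat 1. Loxl2, a collagen cross-linking oxidase, was 65.6, 31.9, 17.4 and 20.1 in PAN rats and from 6.86 to 21.5 in treated rats (-1.10, SE 0.39). Without PAN rat 1 the pooled difference was -0.71. With all rats Loxl2 differed from PAN by -0.65 with pioglitazone and -1.55 with GQ-16. Fbn1, the microfibril protein fibrillin 1, differed by -0.73 (SE 0.28), which was -0.44 without PAN rat 1, and Bgn, the proteoglycan biglycan, by -0.45 (SE 0.19). With all rats Fbn1 differed from PAN by -0.44 with pioglitazone and -1.02 with GQ-16. Of the collagen IV chains of the mature glomerular basement membrane, Col4a3 differed by 0.04 and Col4a4 by -0.16, and Col4a5 is not given here.

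Mesangial and smooth muscle genes had 6 of 20 lower (30%, against 2.88% of all genes) and 0 higher at an unadjusted p under 0.05, with a median of -0.33. They were Tagln, Des, Myl9, Fhl2, Serpine2 and Acta2. Myl9, the regulatory light chain of smooth muscle myosin, was 75.8, 61.3, 49.1 and 38.5 scaled CPM in PAN rats and from 24.0 to 47.1 in treated rats (-0.65, SE 0.18). Acta2, smooth muscle actin, was 134, 58.5, 46.5 and 32.5 in PAN rats, and it differed by -0.94 with all rats and by -0.54 without PAN rat 1. With all rats Acta2 differed from PAN by -0.64 with pioglitazone and -1.24 with GQ-16. Fhl2, a LIM protein of actin-linked signalling, differed by -0.69. Within the lower title numbers, with their single PAN rat, the differences were -0.23 for Myl9, -0.17 for Acta2 and -0.10 for Fhl2. Tpm2, a tropomyosin outside the list and chosen after its values were seen, was 114, 76.2, 58.3 and 59.1 in PAN rats and at most 57.4 in treated rats. None of the mesangial lineage markers passed an unadjusted p of 0.05. Pdgfrb differed from PAN by -0.19 with pioglitazone and -0.67 with GQ-16, while Itga8 (0.08 and -0.39) and Gata3 (0.14 and -0.34) lay in opposite directions with the drugs. The count of 6 was 4 without PAN rat 1 (1.52% of all genes). It was 8 without PAN rat 4 (4.27%) and 4 with the title number covariate (4.38%). The median was -0.27 within the higher and -0.17 within the lower title numbers, and -0.18 with the covariate. It was -0.19 with pioglitazone and -0.54 with GQ-16.

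Striated muscle genes had 4 of 13 lower (30.8%, against 2.88% of all genes) at an unadjusted p under 0.05, namely Des, Ldb3, Pygm and Myom2, and a median of -0.41. The count was 3 to 6 with each rat left out (6 without the fourth GQ-16 rat, against 3.52% of all genes). With the mitochondrial share as a covariate the count was 2 (2.31% of all genes) and the median -0.44, so the size of the difference did not shrink. Without the first pioglitazone rat the median was -0.25. Among genes with a mean of at least 10 CPM, 4 of 8 were lower (2.41% of all such genes) and the median was -1.18. Within the higher title numbers the count was 1 (3.49% of all genes), with a median of 0.03. Within the lower ones, with their single PAN rat, the median was -0.69. Pygm, muscle glycogen phosphorylase, was 144, 229, 128 and 177 scaled CPM in PAN rats, 49.9, 129.6, 43.2 and 212 with pioglitazone and 26.8, 31.8, 63.6 and 71.4 with GQ-16. The healthy mean was 5.77 ± 1.27, so every treated rat remained well above it, and the pooled difference was -1.41 (SE 0.47, limma adjusted p = 0.913). Within the higher title numbers the difference of Pygm was -0.39 and within the lower ones -1.83. Synpo2l, an actin-binding protein of the Z-disc, was 81.1, 139.6, 154 and 137 in PAN rats and 23.3 to 255 in treated rats, and the highest of them was the GQ-16 rat with a title number over 25. The difference of Synpo2l was -1.06 with all rats, 0.40 within the higher title numbers and -1.66 within the lower. Skeletal muscle actin, fast myosin, muscle creatine kinase and fast troponin T genes (Acta1, Myh4, Ckm and Tnnt3) are not among the genes of the table.

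**Figure D4:**
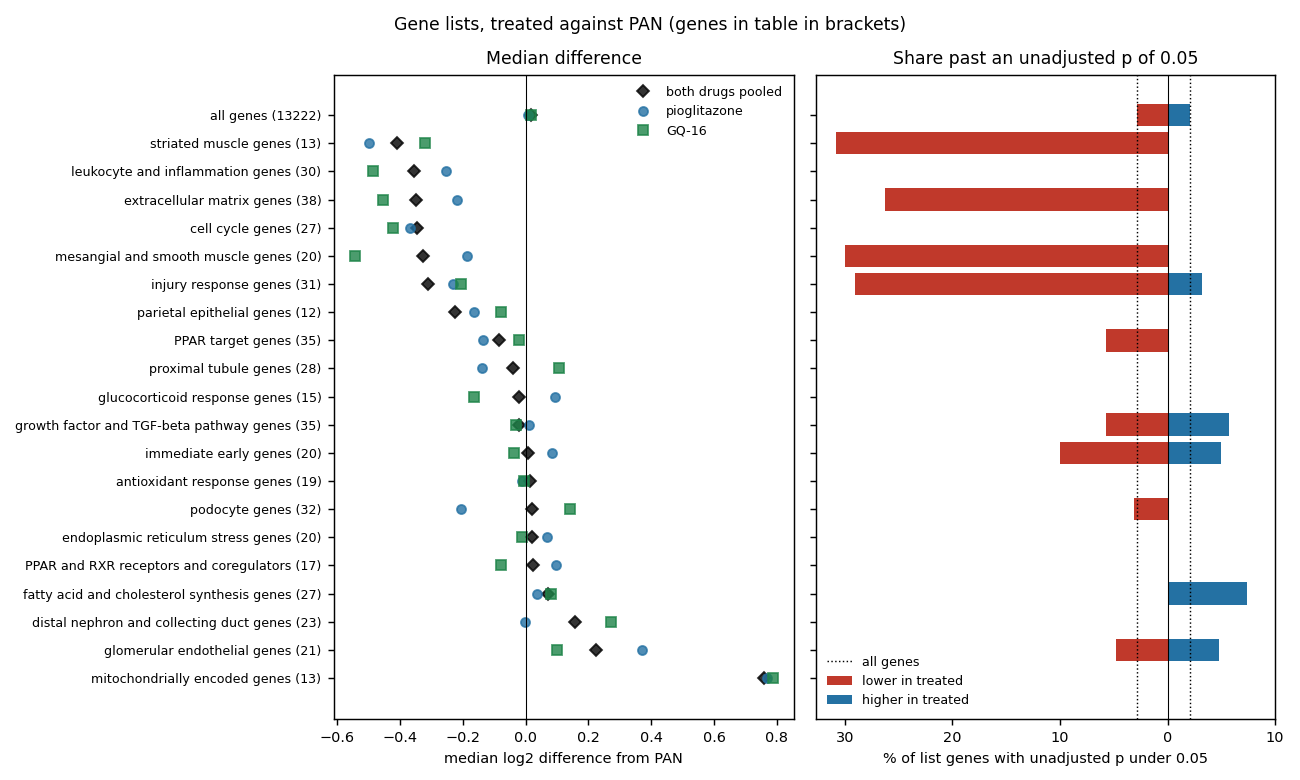
Left, median log2 difference from PAN (horizontal axis) of each gene list for both drugs pooled (diamonds), pioglitazone (circles) and GQ-16 (squares). Right, percent of each list that was lower (red) or higher (blue) at an unadjusted limma p under 0.05, with dotted lines for all genes (2.88% and 2.05%). The bars of the muscle, matrix, mesangial and injury lists are between 26.3% and 30.8% on the lower side. The muscle, mesangial and injury lists share Des, so their bars are not separate results.

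Of 32 podocyte genes 1 was lower (3.12%, against 2.88% of all genes) and 0 were higher (2.05% of all genes) at an unadjusted p under 0.05, with a median of 0.02. Within title numbers of 25 and higher 16 of them were higher (5.35% of all genes were) with a median of 0.50, and with the mitochondrial share as a covariate 10 were higher (3.04% of all genes). Within the lower title numbers 0 were higher and the median was -0.09. Nphs1, nephrin of the slit diaphragm, was 1739, 1725, 1490.0 and 1203 scaled CPM in PAN rats, 805, 1365, 1971 and 2322 with pioglitazone and 1801, 1145, 2506 and 3289 with GQ-16. Wt1, the podocyte transcription factor, differed by 0.01 (SE 0.30), Podxl, podocalyxin, by 0.12 (SE 0.20) and Synpo, synaptopodin, by -0.04 (SE 0.38). The rats of each drug group spread over more than 2-fold in Nphs1, and the PAN rats lay within that spread. Inf2, an actin-regulating formin, was the 1 lower gene (-0.45, or -0.16 with the title number as a covariate), at 237, 250.2, 215 and 162 in PAN rats and 125 to 233 in treated rats. Trpc6, a calcium channel of foot processes, differed by -0.58 with an unadjusted p of 0.0505. The median of the list was -0.21 with pioglitazone and 0.14 with GQ-16, and with the title number covariate the pooled median was 0.29. With each rat left out the count of lower genes was 0 to 2. The pooled median then ran from -0.12 (without the fourth GQ-16 rat) to 0.14 (without the first pioglitazone rat).

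Endothelial genes were higher in 18 of 21 cases (7259 of 13222 over all genes), with a median of 0.22. At an unadjusted p under 0.05 there were 1 lower (Plvap) and 1 higher, or 4.76% each against 2.88% and 2.05% of all genes. The median was 0.10 without PAN rat 4 and 0.13 without the first pioglitazone rat, and it was 0.10 within the higher and 0.59 within the lower title numbers. The higher one was Emcn, endomucin of capillary endothelium, at 508, 573, 688 and 420.5 scaled CPM in PAN rats and 544 to 1113 in treated rats (0.43, SE 0.20). No endothelial gene was higher at that threshold without centring or with quantile normalization. The same held without PAN rat 2, without PAN rat 4 and without several of the treated rats. Kdr, the main VEGF receptor, was 0.34 (SE 0.23). Leukocyte and inflammation genes were lower in 28 of 30 cases (5963 of 13222 over all genes) with a median of -0.35, and 0 passed in either direction. Cd68, a macrophage marker, was 33.6 in PAN rat 1, 15.5, 12.4 and 11.0 in the others and 7.78 to 15.98 in treated rats, and its difference was -0.57 with all rats and -0.225 without PAN rat 1. The median of this list was -0.05 without PAN rat 1, and 5 genes passed as lower without PAN rat 3 (3.45% of all genes did) and 7 without PAN rat 4 (4.27%). The median of this list was -0.49 in the higher range of title number and 0.16 in the lower, where a single PAN rat stood for its group. With the tubule lists as a covariate 9 of 30 were lower (4.48% of all genes), and without centring 7 of 30 were (6.89%).

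Tubule genes were examined because sieved glomeruli can carry tubule pieces. None of 28 proximal tubule genes and none of 23 distal nephron genes passed in either direction, with medians of -0.04 and 0.16. The proximal median was 0.33 without PAN rat 4, -0.29 without PAN rat 1 and -0.23 within the higher and -0.84 within the lower title numbers. Without PAN rat 2, 4 distal genes were higher at an unadjusted p under 0.05 (1.62% of all genes were), and the distal median was 0.04 without PAN rat 1 or the first GQ-16 rat and between 0.10 and 0.25 without each other rat. It was -0.13 within the higher and 0.39 within the lower title numbers, where a single PAN rat stood for its group. Egf, made by the distal nephron, was 16.2, 199.8, 121 and 116 scaled CPM in PAN rats and 79.2 to 396 in treated rats (0.997, SE 0.57), and its difference was 0.216 without PAN rat 1. Umod, uromodulin of the thick ascending limb, differed by 0.34 (SE 0.29), or 0.11 without PAN rat 1 and 0.61 without PAN rat 2. Kap, an androgen-regulated proximal tubule gene, differed by -0.75 (SE 0.57), or from -1.31 without PAN rat 1 to -0.29 without PAN rat 4. Parietal epithelial genes, which mark the cells lining Bowman's capsule, had 0 of 12 past an unadjusted p of 0.05 in either direction (2.88% of all genes were lower and 2.05% higher), with Cldn1 at 0.43 (SE 0.32) and Vcam1 at -0.39 (SE 0.25). Their median was -0.22 with all rats and -0.0052 without PAN rat 1, and it was -0.20 within the higher and -0.10 within the lower title numbers. Vcam1 was at -0.14 without PAN rat 1.

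All 13 mitochondrially encoded genes had a higher value in treated rats (7259 of 13222 over all genes), with a median of 0.76. Of these, 0 passed at an unadjusted p under 0.05. The median was 0.20 with quantile normalization and 0.11 with the mitochondrial share as a covariate. These genes make up the read share compared above, so they are not 13 separate results. Without the fourth GQ-16 rat 5 of 13 passed as higher (2.06% of all genes did), and with the podocyte list as a covariate 12 did (3.38% of all genes). Mt-nd4, a subunit of complex I, was 1865, 3311, 3636 and 3665 scaled CPM in PAN rats and 2424 to 13320.0 in treated rats. The list's median was -0.11 within the title numbers of 25 and higher and 0.83 within the lower numbers, and it was 0.28 with the title number as a covariate. Cell cycle genes were lower in 25 of 27 cases (5963 of 13222 over all genes) with a median of -0.34, and 0 passed. Cdc20, an activator of the anaphase-promoting complex, was 21.9, 26.6, 16.5 and 20.02 in PAN rats and 4.77 to 20.3 in treated rats, and Tpx2, a spindle assembly factor, differed by -0.58 (SE 0.30). With the title number covariate 14 of the 27 cell cycle genes were lower at an unadjusted p under 0.05 (4.38% of all genes were) and the median was -0.84. Within the higher numbers alone, with 3 PAN and 2 treated rats, 15 were lower (3.49% of all genes) and the median was -1.18. Within the lower numbers 1 was lower (2.24% of all genes) and the median was -0.12. With the mitochondrial share as a covariate 8 were lower (2.31% of all genes) and the median was -0.63.

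The signalling lists had few genes past an unadjusted p under 0.05, against 2.88% lower and 2.05% higher over all genes. Growth factor and TGF-β pathway genes had 2 of 35 lower (5.71%), Tgfb3 (-0.77) and the BMP antagonist Grem1 (-1.09, or -0.65 without PAN rat 1), and 2 higher (5.71%), Hbegf, a ligand of the EGF receptor (0.54), and Smad2, a TGF-β signal transducer (0.16), with a median of -0.02. Immediate early genes had 2 of 20 lower (10%), Fos (-0.54) and Atf3 (-0.36), and 1 higher (5%), Jun (0.18), so members of the AP-1 complex lay in both directions and the median was 0.01. Without PAN rat 1 the lower count was 0 in both lists, and without PAN rat 4 it was 4 among immediate early genes (4.27% of all genes). The higher count of growth factor genes was 0 without PAN rat 1, PAN rat 4 or the second GQ-16 rat. Medians within the higher and the lower title numbers were -0.05 and 0.16 for growth factor genes and -0.09 and 0.22 for immediate early genes. Glucocorticoid response genes (15), endoplasmic reticulum stress genes (20) and antioxidant response genes (19) had 0 past the threshold in either direction, with medians of -0.02, 0.02 and 0.01. Within the lower title numbers 3 glucocorticoid genes (median -0.34), 0 endoplasmic reticulum stress genes (-0.06) and 2 antioxidant genes (-0.35) were lower, against 2.24% of all genes. Within the higher ones the counts were 1, 0 and 1, with medians of -0.06, 0.08 and -0.03, against 3.49% of all genes. Without PAN rat 2, 2 glucocorticoid genes were lower (2.23% of all genes). In these lists the metallothionein genes Mt2A and Mt1 were at -0.73 (SE 0.41) and -0.76 (SE 0.56), and at -0.39 and -0.32 without PAN rat 1. There were also Xbp1, a regulator of the unfolded protein response, at 0.28 (SE 0.14) and Dnajb9, one of its chaperone targets, at 0.13 (SE 0.13). Gpx1, a glutathione peroxidase, was -0.26 (SE 0.15), or -0.09 without PAN rat 4, and Nfe2l2, the antioxidant regulator Nrf2, was 0.15 (SE 0.08).

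**Figure D5:**
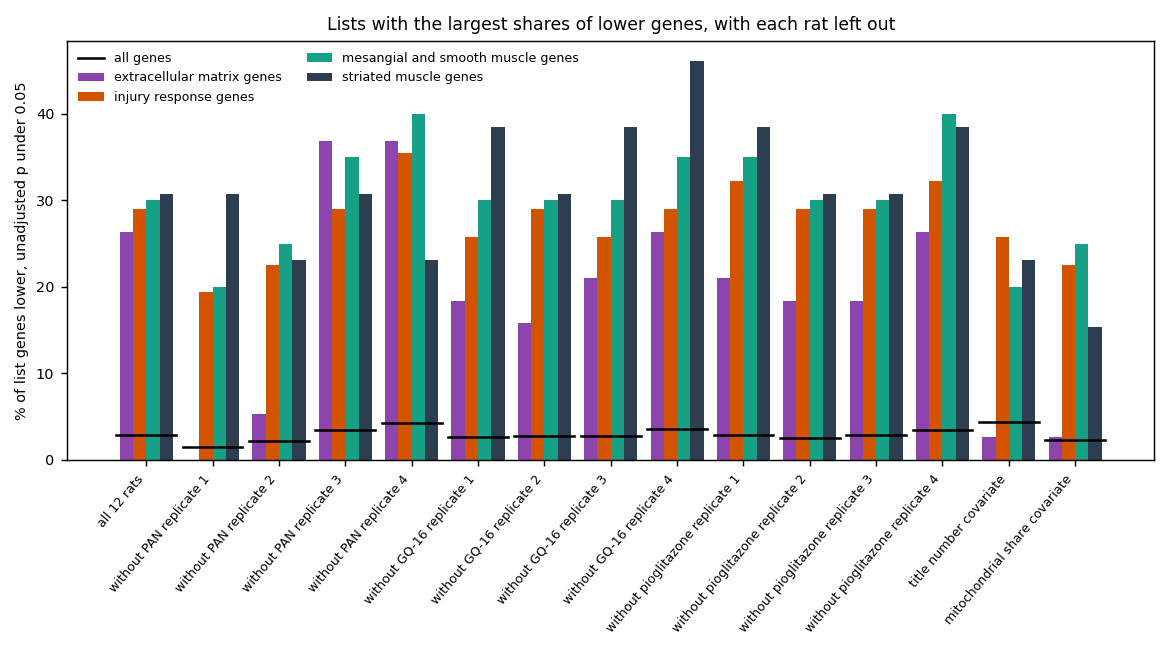
Percent of list genes lower at an unadjusted limma p under 0.05 (vertical axis) for 4 lists with all 12 rats, with each rat left out and with title number or mitochondrial share as a covariate, and black lines for all genes. The bar of the matrix list is at 0 without PAN rat 1, while the injury, mesangial and striated muscle bars stay above the line for all genes in every setting plotted. The injury, mesangial and striated muscle lists share Des.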

How the data were processed

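Poly(A) RNA libraries of glomeruli were analysed in the form that the authors deposited, as log2 CPM of 13222 genes (12741 protein coding) in 16 libraries. HISAT2, featureCounts, Subread and limma and the build Rnor_6.0 are listed in the submitters' processing notes, without versions or roles. The deposited log2 values hold 0.5 read added to each count and 1 to each total, and 100% of the recovered reads were within 0.05 of a whole number. Every gene reached 2.04 CPM in at least 8 libraries. A level of 3 reads corresponds to 0.137 to 0.225 CPM, and such floors cover counting error only. Libraries of one group differed, with chi-square per gene from 13.3 to 297.

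Each library was centred on its median, and limma 3.58.1 in R 4.3.3 with a variance trend was fitted to 12 libraries in 2 groups, or 3 for GQ-16 minus pioglitazone, with Benjamini-Hochberg adjustment over all genes and a call at 0.05. The fitting script was tested on simulated data. Scaled CPM is 2 to the power of the centred value plus 4.7113, the mean of the 16 column medians. Single values were compared by exact permutation over 495 assignments, two-sided. Of 569 entries in 20 gene lists, 476 were found in the table. The members, lists and named genes were chosen with earlier results of these data known. Named genes were the 12 with the smallest p on each side (symbol, mean of at least 5 CPM), the 2 smallest p of each list and a fixed set of 16. Acta2, Myl9, Tpm2, Fhl2, Phlda3, Ccng1, Mdm2, Col3a1, Col6a1, Lgals3, Gnat2 and the further list members named were added after their values were seen. RefSeq promoters (GRCr8) were matched by symbol. The tests planned for a table of raw counts were not run, as the deposited table holds log2 values, although whole reads were recovered from them. Some genes that the rule names are not reported here.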

Additional observations from a re-analysis of the deposited data

Results flagged for a closer look

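Of 249 groups of 4 rats examined over the named genes and library measures, 9 had a rat whose gap to the nearest of the others exceeded the 95% limit for such a gap, and chance alone gives about 12.5. The values are log2 scaled CPM. In PAN rat 1 there were 5 of them. Vcam1 was 6.021 (the other PAN rats 4.953 to 5.115), Cxcl10 was 5.103 (2.906 to 3.133), Pdk4 was 4.962 (2.491 to 2.869) and Lgals3 was 5.673 (3.188 to 3.321), each the highest of the group. Mt-nd4 was lowest in PAN rat 1, at 10.86 (11.69 to 11.84). Rgs7 was lowest in PAN rat 2, at 2.73 (2.916 to 2.95), and Gpx1 was highest in PAN rat 4, at 8.593 (7.884 to 7.964). Umod was lowest in the second pioglitazone rat, at 8.066 (8.276 to 8.304). Ikbke was highest in the third GQ-16 rat, at 4.218 (3.905 to 3.912).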

How the results depend on the processing

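Treated against PAN gave 0 genes in 27 of 29 alternatives. One gene passed with the podocyte list as a covariate (1, Efemp1) and with the tubule lists as a covariate (1, Adamts14), and the smallest limma adjusted p ranged from 0.0271 to 1. Counts at an unadjusted p under 0.05 were 22 (minimum change of 1.5-fold) to 1273 (array weights) with all rats or within a title number range, and 423 to 792 with each rat left out. Voom on recovered reads with median-ratio scaling, chosen after seeing the data, gave 0 genes, 780 at an unadjusted p and a smallest adjusted p of 0.0513. GQ-16 against pioglitazone gave 0 in 23 of 24 alternatives and 1 with array weights (Vcan, -1.20, adjusted p = 0.0233), and its unadjusted counts were 320 to 1264 with each rat left out and 662 to 2557 otherwise. The share of lower genes among those at an unadjusted p under 0.05 was 58.4%, and it was 94.9% without centring, 48.8% with quantile normalization, 43.1% with the mitochondrial share as a covariate, 39.5% in title numbers of 25 and higher and 47.4% below 25. With a rat left out it was lowest without PAN rat 1 (47.5%) and the third pioglitazone rat (49.6%) and highest without PAN rat 4 (71.3%). The difference in total reads, treated against PAN, ranged from -713700 to 554800 with each rat left out.

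Of 81 named genes 11 changed sign in some setting, and the cause was not tested. Within title numbers of 25 and higher these were Cebpb (0.031), Mt-nd4 (-0.05), Synpo2l (0.397) and Synpo (0.77), and below 25 Dnajb9 (-0.157), Plin2 (0.217), Cpt1a (-0.089), and Mdm2 (0.048). Without centring they were Cpt1a (-0.106) and Wt1 (-0.11), and with quantile normalization Cpt1a (-0.005). Wt1 was at -0.004 with median-ratio scaling and -0.022 with array weights, and Umod at -0.077 with array weights. Synpo was at 0.046 with array weights, 0.38 with the title number, 0.487 with the mitochondrial share and 0.027 with the podocyte list as covariates. With each rat left out the ranges were -0.262 to 0.03 for Plin2, -0.079 to 0.104 for Cpt1a, -0.093 to 0.193 for Wt1, -0.204 to 0.136 for Synpo and -0.384 to 1.034 for Col1a1.

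No paired analysis was possible because the labels give no number or litter that joins rats of different groups. DESeq2 and edgeR were not run, nor was TMM scaling, although reads were recovered for voom and median-ratio scaling. Within title numbers under 25 a single PAN rat stands for its group and is assumed to vary like the treated rats. Depth limits low genes, with 3 reads at 0.137 to 0.225 CPM.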
